A study of Mus musculus with 12 samples.

Results

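Chemokines, interleukins and complement genes were examined in 12 RNA sequencing libraries of the mouse dermal papilla, the cluster of mesenchymal cells that the hair bulb encloses. The genes were chosen by symbol alone: the numbered Ccl, Cxcl and Il genes, Cx3cl1, complement genes such as C1qa, C1qb, C1qc, C1ra, C1s1, C2, C3, C4b, C6, C7, C8a, C9, Cfi, Cfb, Masp1 and Masp2. This gave 87 of the 25887 genes in the tables, made up of 37 chemokines, 33 interleukins and 17 complement genes. C4a also matched the rule and was not analysed here.

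Dermal papilla cells were sorted by flow cytometry from Smo* mutant mice, in which a gain-of-function Smo acts in the dermal papilla, and from wild-type (WT) mice, with 3 libraries in each of 4 groups. Smo is the transducer of Hedgehog signals at the cell membrane. At postnatal day 20 (P20) both the Smo* and the WT mice were labelled as females in telogen, when follicles rest. At postnatal day 28 (P28) all mice were labelled male, with the Smo* mice in anagen I-III and the WT mice in anagen VI, so that genotype and growth stage differ together at P28, and age, stage and labelled sex differ together between P20 and P28. The driver of the mutant allele, the strain and the sort markers are not given in the sources used here. The labels do not say whether each library had its own animal, so the p-values reflect only the spread among these samples, and part of it may be technical.

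Chemokines are small secreted proteins that guide migrating cells through G protein-coupled receptors. One group is made in resting tissue, such as Cxcl12 and Cxcl14, and another is induced by injury or infection through NF-kappaB, such as Cxcl1, Cxcl2 and Ccl2. Interleukins are secreted messengers between cells, many of which act through JAK and STAT proteins. Complement is a cascade of plasma proteases in which the C1 complex (classical pathway) or the Masp proteases (lectin pathway) cut C4 and C2, the resulting convertase cuts C3, and C6, C7 and their partners then build the membrane attack complex, while inhibitors such as factor I (Cfi) hold the cascade in check. Fibroblasts of the skin are known to make many of these proteins themselves.

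The libraries held 36323058 to 48926831 reads on genes. Smo itself lay at 6351 to 7528 normalized counts in Smo* P20 against 5037 to 5225 in WT P20, and at 7487 to 8694 in Smo* P28 against 5418 to 6144 in WT P28. The Hedgehog target Ptch1 did not overlap between genotypes at either age. Dermal papilla markers were detected in every library, 18 of 18, but Smo* P28 replicate 3 stood apart from its group: its Spearman correlations across genes with its 2 replicates were 0.962 and 0.959, while all other pairs of replicates reached at least 0.976. That library had a read on 15453 genes, against 17337 to 17926 in the other libraries. Its total of 44805067 reads was within the range of the others. The same library held 751 normalized counts of Corin, a dermal papilla protease, against 4148 and 7856 in Smo* P28 replicates 1 and 2, and 1018 of Adipoq, an adipocyte hormone, against 25.3 and 1.90. Blood cell markers were low. The summed level of 16 pan-leukocyte and myeloid markers ranged from 598 to 2687 normalized counts over the 12 libraries. Ptprc, the common leukocyte antigen, lay at 0 to 51.3. Sums over 11 T cell and lymphocyte markers were 59.7 to 143.7, with Cd3g and Nkg7 at 0 in all libraries. The 8 mast cell and neutrophil markers summed to 92.6 to 203.5 in WT P28 against 9.63 to 12.1 in Smo* P28, and to 0.871 to 21.9 at P20. Of these 8, Ly6g and Retnlg were at 0 in all libraries, and the 1 tested at P28, S100a8, was called lower in Smo* cells. S100a8, which is also a keratinocyte marker, made up most of each WT P28 sum. The difference in the sums is therefore mainly that of S100a8 and not of the list as a whole. In such bulk samples, fewer cells of a type and less RNA per cell cannot be told apart.

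Most of the interleukins and many of the CC chemokines had few or no reads in these cells. Of the 87 genes, 15 had a mean of at least 1000 normalized counts over the 12 libraries, 48 a mean of at least 10, and 39 a mean under 10. Among these 39, 12 had no read in any library: C8a, Ccl1, Ccl21b, Ccl26, Ccl27b, Il12b, Il17a, Il20, Il22, Il24, Il3 and Il9. The other 27 were Cxcl3, Cxcl11, Cxcl15, Cxcl17, Ccl3, Ccl4, Ccl5, Ccl12, Ccl17, Ccl20, Ccl21a, Ccl22, Ccl24, Il1a, Il1b, Il2, Il5, Il12a, Il13, Il17b, Il17c, Il21, Il23a, Il25, Il27, Il31 and C9, with means between 0.198 and 9.47. A count of 0 allows up to 3 reads per library, which correspond to 2.56 to 3.56 normalized counts, and this limit covers counting error only.

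The genes with the highest levels per kilobase of exon differed between groups. In Smo* P20 they were Cxcl1 (2949 ± 1049 normalized counts per kb), Ccl7 (2368 ± 2240.5) and C1s1 (2068 ± 552; SD, n = 3 libraries, as in all values below). WT P20 was led by Ccl7 (5558 ± 931), Cxcl1 (5055 ± 1803) and C3 (3389 ± 1390.1). Neighbours in both of these P20 orders differed by less than the larger of their SDs. In Smo* P28 the order was Cxcl1 (6614 ± 3318), Ccl7 (5790.2 ± 3182) and Ccl2 (4176 ± 1580.4), again with neighbours within the larger of their SDs. WT P28 was led by Cxcl14 at 8289.7 ± 2852 normalized counts per kb, above C3 (4083 ± 2552) by more than the SD of either. C1s1 (3204 ± 859) followed C3 within the larger of their SDs. Cxcl14 thus led in WT P28 and stood at rank 11 in Smo* P28 (638 ± 226).

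Between Smo* and WT cells at P28, 8 of 51 tested genes passed the test, 3 higher and 5 lower. Cxcl14, the lectin pathway protease gene Masp1 and the cytokines Il34 and Il16 were among those lower in Smo* cells, and Ccl2, Cxcl1 and the complement component C2 were higher. The test was limma on log2(normalized count + 1) over all genes whose mean was 10 or more, p-values were adjusted over these by the Benjamini-Hochberg method, the threshold was 0.05, and fold changes are given as log2 of Smo* over WT. It called 15.7% of the tested genes of these families and 8.9% of all 14757 genes tested, with 4.05% higher and 4.85% lower. An unadjusted p under 0.05 was found for 19 of 51 and for 26.4% of all genes. Groups did not overlap for 7 of the 51 genes in the higher direction and for 12 in the lower, where the shares over all genes were 15.6% and 17.8%. The median fold change was -0.30, against -0.01 over all genes. Without Smo* P28 replicate 3, the library that stands apart, 12 were called, with Cxcl2, Ccl7, Cxcl5 and Il12a added, and over all genes calls numbered 1619 of 14760, against 1313 of 14757 with it.

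At P20, Il33 was the 1 gene of 46 tested that passed the test, lower in Smo* cells. That is 2.17% of the tested genes of these families and 0.696% of all 14645 genes. Fold changes were mostly below 0: 35 of 46 were negative, with a median of -0.56 against 0.00 over all genes, and 14 of 46 had an unadjusted p under 0.05, against 11.4% of all genes. Markers of interfollicular dermal fibroblasts moved alongside: all 10 were below 0 at P20, 1 (Dpt) was called, and their summed level was 107724 to 119924 normalized counts in Smo* P20 against 156159 to 161933 in WT P20. Of 18 dermal papilla markers 4 were called higher at P20 and none lower, while 8 were below 0 and the median fold change was 0.17. Their summed level was 86521 to 115790 in Smo* P20 against 66066 to 87375 in WT P20, ranges that overlapped. The part of these cells in the P20 shift was not tested. Groups did not overlap for 2 genes in the higher direction and 8 in the lower, where the shares over all genes were 8.04% and 8.34%. By edgeR Il33 was again the 1 call (0.635% of all genes). DESeq2 called 6 (Il33, Cxcl14, C7, Il18 and Ccl11 among them; 3.28% of all genes), and the authors' deposited table called 3 (Il33, Cxcl14 and Il18; 2.13% of all genes).

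**Figure D1:**
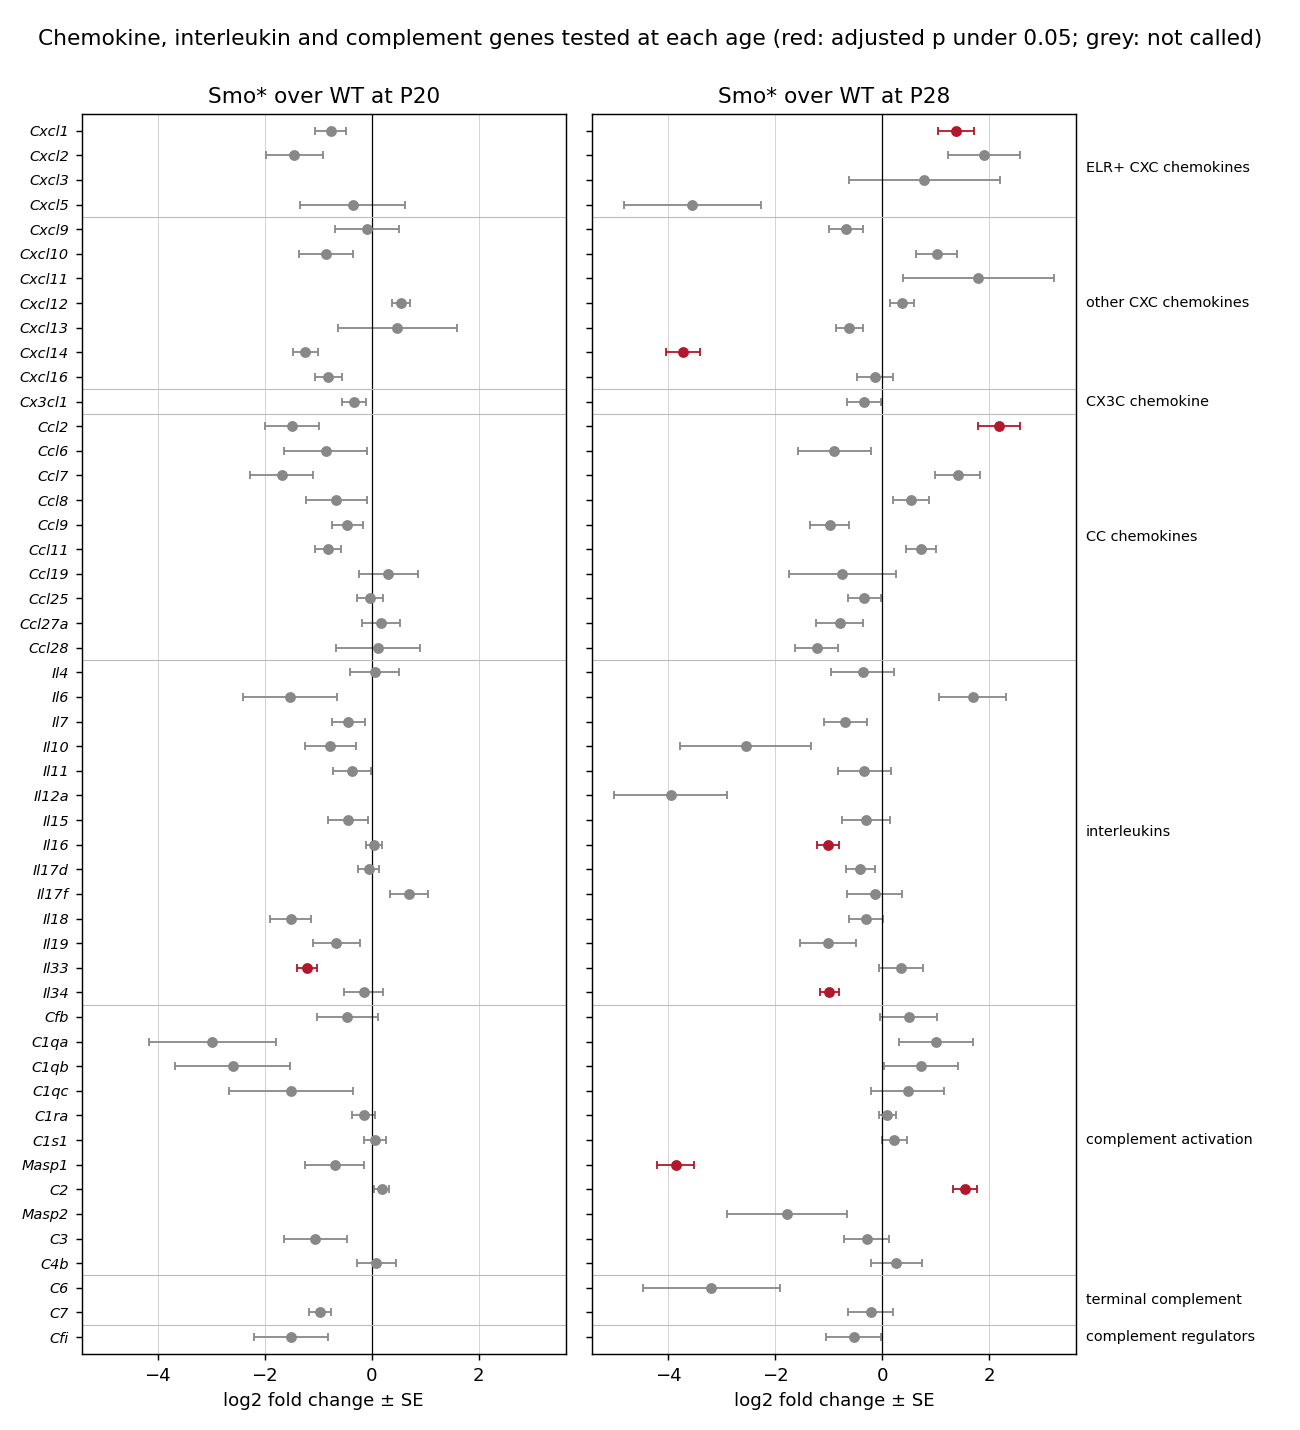
Log2 fold change of Smo* over WT with its standard error (limma, 3 libraries against 3) for tested chemokine, interleukin and complement genes, at P20 (left panel) and P28 (right panel); red points passed the test and grey points did not. Il33 is the only red point at P20, and at P28 Cxcl14 (-3.72) and Masp1 (-3.86) lie farthest from 0 among the red points.

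Levels of these genes had a larger median spread between replicates than those of all genes. The median SD between the 3 libraries of a group, on log2(value + 1), was 0.518 in Smo* P20, 0.426 in WT P20, 0.549 in Smo* P28 and 0.496 in WT P28. Over all genes with a mean of at least 10 it was 0.218, 0.198, 0.267 and 0.194 in the same order. These sets were not matched for level: 29 of 48 genes of these families had a mean of at least 50, against 12505 of all 14790. The part of level in the spread was not tested. Among genes with a mean of 50 or more, Cxcl13, which guides B lymphocytes, had the widest spread within a group, with 67.1, 26.1 and 859.7 normalized counts in the 3 Smo* P20 libraries (chosen after its values were seen).

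**Figure D2:**
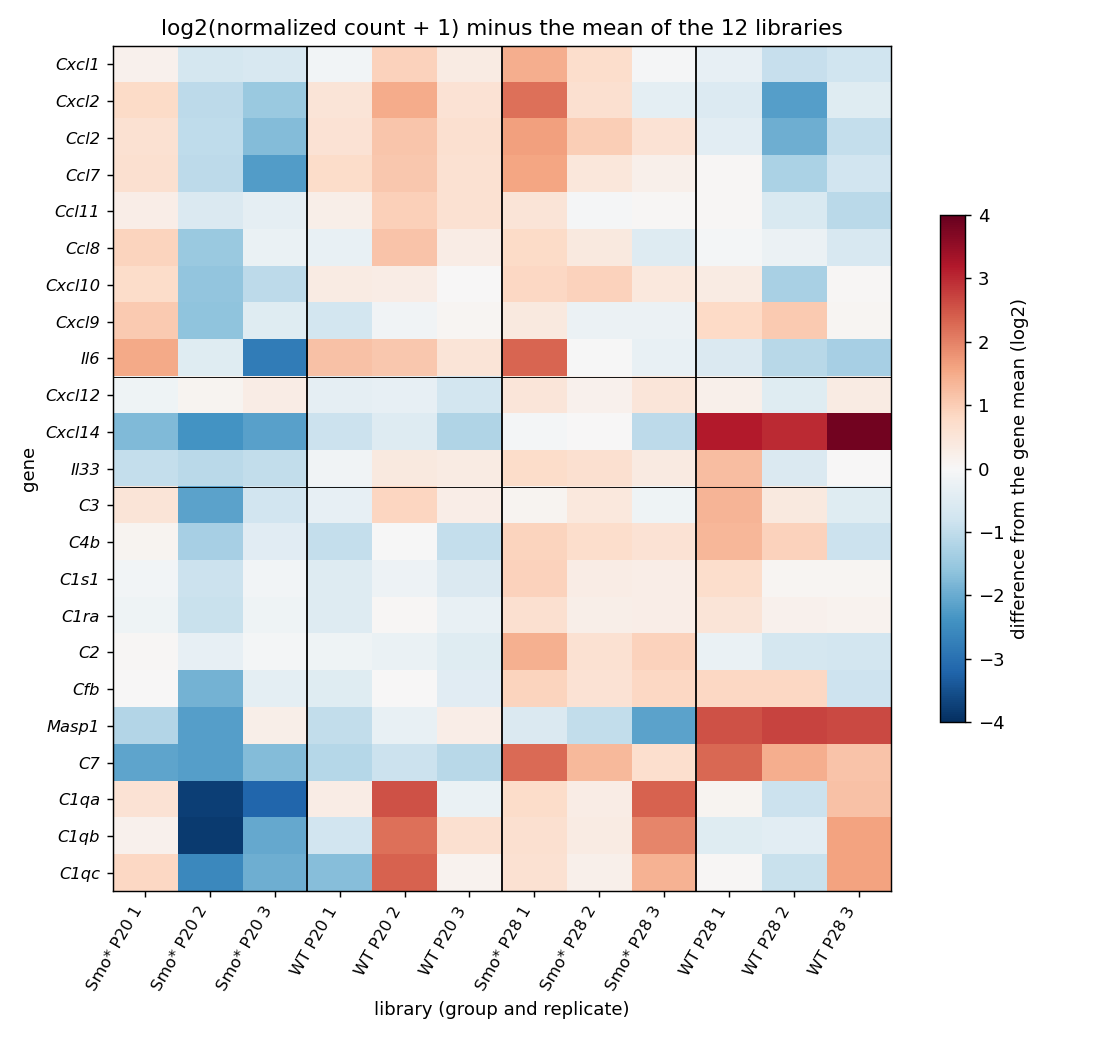
Level of 23 chemokine, interleukin and complement genes in each of the 12 libraries, as the difference from the gene's own mean on log2(normalized count + 1), with the groups in the order Smo* P20, WT P20, Smo* P28 and WT P28. Cxcl1, Cxcl2, Ccl2, Ccl7 and Il6 (top rows) are lower in Smo* P20 replicates 2 and 3 than in replicate 1, and Cxcl14 and Masp1 are highest in the 3 WT P28 libraries.

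Cxcl14, a chemokine made constitutively in skin (ENSMUSG00000021508, chromosome 13, 56288643 to 56296551 in GRCm38), was the chemokine with the lowest fold change at P28. It lay at 1349, 1457 and 693 normalized counts in Smo* P28 against 12936, 11402 and 21097 in WT P28 (log2 fold change -3.72, SE 0.32, limma adjusted p = 0.000578). At P20 it lay at 427, 273 and 320.3 in Smo* cells and at 788, 1014 and 619 in WT cells (-1.24, SE 0.23, adjusted p = 0.0591). The genotypes did not overlap at either age, and the P20 difference did not pass the test. It was called at P20 by DESeq2 (adjusted p = 4.68e-05) and in the authors' deposited table (adjusted p = 0.00542, where the fold change runs as WT over Smo*, 1.11). The difference between P28 and P20 in the genotype effect passed its own test (-2.48, SE 0.43, adjusted p = 0.00839), a test that called 5 of 48 genes of these families (10.4%) and 4.72% of all 14790 genes.

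Dermal papilla markers moved alongside at P28. Of the 18 listed, 1 was higher and 6 were lower in Smo* P28, and their summed level was 59435 to 374716 normalized counts in Smo* P28 against 437462 to 519545 in WT P28. Their part in the change of Cxcl14, and of the other genes lower at P28, was not tested.

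Cxcl12, which holds and attracts cells through the receptor Cxcr4, was high in every library. It lay at 6059.6, 7409.6 and 8335 normalized counts in Smo* P20 against 5363, 5514 and 4081 in WT P20, groups that did not overlap (0.54, SE 0.16, limma adjusted p = 0.24). At P28 the groups overlapped, at 9648, 7730.2 and 9589 in Smo* cells and 7864, 4908 and 8589.6 in WT cells (0.37, SE 0.22, adjusted p = 0.317). Neither difference passed the test. Its receptor Cxcr4, outside the rule, was higher in Smo* cells at both ages. It lay at 1268, 1816 and 1627 in Smo* P20 against 727, 459 and 674 in WT P20 (1.35, SE 0.20, adjusted p = 0.0325), and at 1731, 2318 and 674 in Smo* P28 against 284, 233 and 333 in WT P28 (2.31, SE 0.41, adjusted p = 0.0138). The lowest Smo* P28 value, from the library that stands apart, was still above the highest WT P28 value. The P20 call of Cxcr4 ended without any 1 of Smo* P20 replicates 2 and 3 or WT P20 replicates 1, 2 and 3 (adjusted p up to 0.132), and the P28 call without WT P28 replicate 2 (0.0673).

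Scavenging receptors, which take chemokines up without signalling through G proteins, did not follow Cxcr4. Ackr3, which binds Cxcl12, lay at 4087, 1810.2 and 2021 normalized counts in Smo* P20 against 5363, 6536 and 5685 in WT P20 (-1.25, SE 0.28, limma adjusted p = 0.109), with no overlap but no call. Ackr4, which binds homeostatic CC chemokines, was lower in Smo* P28, at 581, 793 and 463 against 1219, 1339.8 and 1943 in WT P28 (-1.30, SE 0.24, adjusted p = 0.0158). Without WT P28 replicate 2 or 3 its adjusted p was 0.0593 and 0.0602. Of 23 chemokine receptors listed, 12 were tested at each age, 1 was higher at P20, and 1 was higher and 1 lower at P28. Endothelial markers moved with genotype at P28 as well: 3 of 11 were higher in Smo* P28 and none lower, and their summed level was 3786 to 6147 normalized counts in Smo* P28 against 1873 to 3448 in WT P28. Their part in the Cxcr4 result was not tested.

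**Figure D3:**
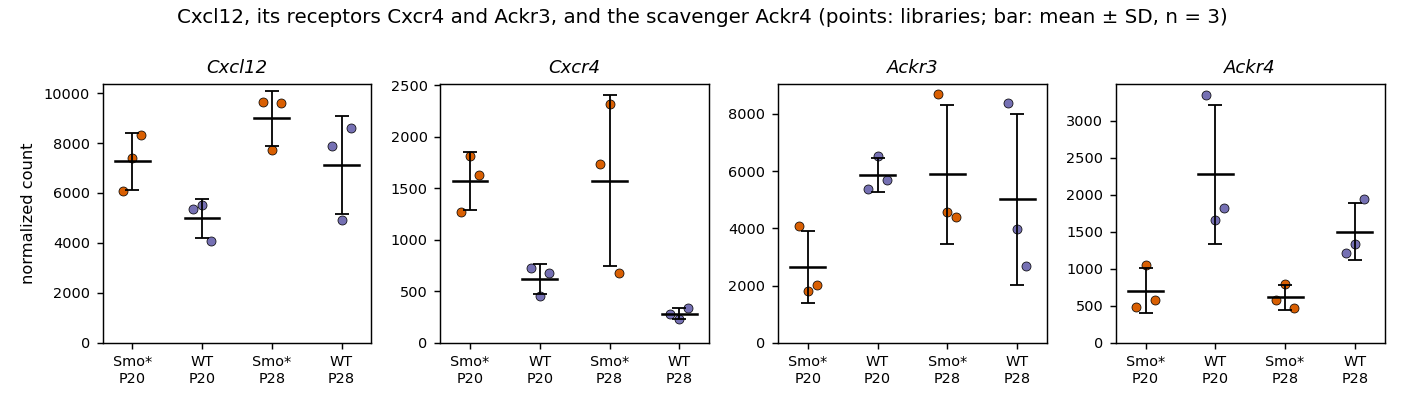
Normalized counts of Cxcl12, its receptors Cxcr4 and Ackr3, and the scavenging receptor Ackr4 in each library (points), with the mean and SD of the 3 libraries of a group (bars), in the order Smo* P20, WT P20, Smo* P28 and WT P28. Every Smo* value of Cxcr4 lies above every WT value of the same age, and every Smo* value of Ackr4 lies below every WT value of the same age.

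Cxcl1 and Cxcl2, ligands of Cxcr2 that draw neutrophils, and the cytokine Il6 are textbook targets of NF-kappaB. Among the 60 genes of these families with a promoter in the RefSeq table (73 promoters, build GRCm38.p6), the letters GGANTTTCC, part of the NF-kappaB consensus, were searched on both strands in the 250 bases before the start and found in 7 promoters, those of Cxcl1, Cxcl2, Cxcl3, Cxcl10, Il6, Il13 and Il16. Of all 32851 promoters in the table, 1.07% held them. The Gli letters GACCACCCA, searched the same way, were in none of the 73 and in 0.225% of all, which says only that these letters are not in these windows. The 250 bases before the start of Cxcl1 (chr5:90890995-90891244, plus strand), Cxcl2 (chr5:90903649-90903898, plus strand) and Il6 (chr5:30012864-30013113, plus strand) are shown as examples. These stretches were chosen after the values of the genes were seen. They are written 5′ to 3′ on the gene's strand, with the NF-kappaB letters in capitals:
Cxcl1: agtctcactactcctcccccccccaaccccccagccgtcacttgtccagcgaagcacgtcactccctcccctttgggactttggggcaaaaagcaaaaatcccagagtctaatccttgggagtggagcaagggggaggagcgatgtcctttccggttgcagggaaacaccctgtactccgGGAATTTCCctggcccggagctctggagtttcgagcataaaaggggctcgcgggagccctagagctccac
Cxcl2: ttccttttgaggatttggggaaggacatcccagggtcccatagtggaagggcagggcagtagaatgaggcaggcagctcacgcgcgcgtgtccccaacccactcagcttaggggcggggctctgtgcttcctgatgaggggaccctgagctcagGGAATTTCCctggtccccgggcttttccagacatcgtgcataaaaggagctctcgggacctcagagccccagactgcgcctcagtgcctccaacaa
Il6: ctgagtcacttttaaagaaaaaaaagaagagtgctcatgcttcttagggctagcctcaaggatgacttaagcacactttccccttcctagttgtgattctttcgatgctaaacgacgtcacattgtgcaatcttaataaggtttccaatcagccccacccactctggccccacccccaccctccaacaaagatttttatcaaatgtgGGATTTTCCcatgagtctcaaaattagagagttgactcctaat
The first capital stands 70 bases before the start in Cxcl1, 96 in Cxcl2 and 43 in Il6. These matches are descriptions of the sequence, and binding was not measured. Smo* P20 replicate 1 was the highest of its group for these 3 genes. It was also the highest for Cxcl3 and Cxcl10, which hold the letters too, but not for Il16 (1219, 965 and 1249 normalized counts). Il13 had 1 read in Smo* P20. Outside these 7 genes, that library was the highest for C3, Ccl7 and Cxcl14 too, but not for C1s1, Cxcl12 and Masp1. The order was thus not confined to the genes with the letters. The part of the letters in that order was not tested.

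Cxcl1 was higher in Smo* cells at P28. It lay at 19083, 11345 and 6777 normalized counts in Smo* P28 against 5586, 3721 and 3996 in WT P28 (1.38, SE 0.34, limma adjusted p = 0.0453), and at 7799, 4319 and 4471 in Smo* P20 against 6453, 13126 and 8856 in WT P20 (-0.77, SE 0.29, adjusted p = 0.37). At P28 the groups did not overlap, and at P20 they did. The difference between the ages passed its test (2.15, SE 0.51, adjusted p = 0.0358). The P28 call was weak: it ended without any 1 of 5 libraries, all but Smo* P28 replicate 3, with adjusted p up to 0.161, while without that replicate the fold change was 1.75 (adjusted p = 0.00385).

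Cxcl2 lay at 2315, 772 and 376 normalized counts in Smo* P28 against 337, 107 and 354 in WT P28 (1.90, SE 0.68, limma adjusted p = 0.125). It did not pass the test with all libraries, although every Smo* P28 value was above every WT P28 value, and was called without Smo* P28 replicate 3 (2.51, adjusted p = 0.0336). Cxcl5, another ligand of Cxcr2, was at 40.8, 31.3 and 0 in Smo* P28 against 117, 102 and 177 in WT P28 (-3.55, SE 1.28, adjusted p = 0.128). Without the library at 0, Smo* P28 replicate 3, its fold change was -1.82 (adjusted p = 0.0129). Cxcl5 therefore lay on the other side of 0 from Cxcl1 and Cxcl2 in the same libraries.

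The monocyte attractant Ccl2 (ENSMUSG00000035385, chromosome 11, 82035571 to 82037453) was higher in Smo* cells at P28. Its normalized counts were 6734, 4299.9 and 3224 in Smo* P28 against 1604, 555 and 1125 in WT P28 (2.18, SE 0.40, limma adjusted p = 0.0149). At P20 they were 3333, 1061 and 644 in Smo* cells against 3206, 4668 and 3402 in WT cells (-1.49, SE 0.51, adjusted p = 0.303). The P28 groups stood apart, while the first Smo* P20 library lay among the WT P20 values and the other 2 lay below them. The genotype effect differed between P28 and P20 by 3.67 (SE 0.74, adjusted p = 0.0172). Without WT P28 replicate 3 the P28 fold change was 2.26 and its adjusted p 0.0522.

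Ccl7, a neighbour of Ccl2 that also attracts monocytes, lay at 7566, 3433 and 2915 normalized counts in Smo* P28 against 2594, 1042 and 1491 in WT P28 (1.41, SE 0.41, limma adjusted p = 0.0765). The groups did not overlap, and the call was made only without Smo* P28 replicate 3 (1.68, adjusted p = 0.0401). Ccl11 (eotaxin), which attracts eosinophils, lay at 2349, 1303 and 1520.5 in Smo* P20 against 2305, 3738 and 2981 in WT P20 (-0.82, SE 0.24, adjusted p = 0.24). At P28 it lay at 2760.4, 1903 and 2012 in Smo* cells and 2012, 1287 and 913 in WT cells (0.72, SE 0.28, adjusted p = 0.148). Of 23 CC chemokines, 10 were tested at each age, none passed at P20 (3 at an unadjusted p under 0.05) and Ccl2 passed at P28.

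The P20 fold changes of several of these genes depended on 1 library. Without Smo* P20 replicate 1, limma called 5 genes at P20, all lower in Smo* cells, while over all genes it called 0.884%, 41 higher and 88 lower: Ccl2 (-2.16, adjusted p = 0.0200), Cxcl10 (-1.54, adjusted p = 0.0317), Ccl7 (-2.45, adjusted p = 0.0325), Cxcl2 (-2.13, adjusted p = 0.0382) and Cxcl14 (-1.42, adjusted p = 0.0457). Il6 (-2.58, adjusted p = 0.125), Cxcl1 (-1.05, adjusted p = 0.158) and Ccl11 (-1.07, adjusted p = 0.0775) were not called there, nor was Il33 (-1.24, adjusted p = 0.0546). In the same libraries, the summed level of 17 NF-kappaB pathway and target genes was 112398 normalized counts in Smo* P20 replicate 1, 55349 and 53157 in replicates 2 and 3, and 100685 to 111946 in WT P20. The sum over 22 immediate early genes, which respond to cell dissociation, was 455909 to 557634 in Smo* P20 against 631067 to 679925 in WT P20, and none of the 22 passed the test at P20. At P28 that sum was 362003 to 640753 in Smo* cells against 358534 to 664278 in WT cells, with 3 of 22 called (Egr3, Fosl2 and Nr4a1), all higher in Smo* cells. The Fosl2 call ended without any 1 WT P28 library (limma adjusted p up to 0.0783). That of Nr4a1 ended without Smo* P28 replicate 1 or 2 or WT P28 replicate 2 or 3 (up to 0.122). The part of these 22 genes in the chemokine results was not tested.

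Chemokines induced by interferon and their relatives gave no call at either age with all libraries. Cxcl10, a ligand of Cxcr3, lay at 1439, 1544 and 1093 normalized counts in Smo* P28 against 1021, 336 and 852 in WT P28, without overlap (1.02, SE 0.38, limma adjusted p = 0.137). At P20 it was at 1369.5, 272 and 395 in Smo* cells against 1034, 1006 and 835 in WT cells (-0.85, SE 0.50, adjusted p = 0.589). Cxcl10 shares its locus with Art3 on the opposite strand, at a mean of 268 normalized counts. Cxcl9 lay on the other side of 0 from Cxcl10 at P28, with groups that overlapped (-0.67, SE 0.32, limma adjusted p = 0.227). At P20 its fold change was -0.09 (SE 0.60, adjusted p = 0.978). Cxcl16, a transmembrane ligand of Cxcr6, lay at 91.9, 53.1 and 65.7 in Smo* P20 against 131, 119 and 114 in WT P20 (-0.81, SE 0.26, adjusted p = 0.269). Those P20 groups did not overlap, whereas the P28 groups did. Cx3cl1 (fractalkine), which tethers cells that carry Cx3cr1, differed by -0.34 at both ages (adjusted p = 0.628 at P20 and 0.534 at P28).

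Among the interleukins, Il33, Il16 and Il34 gave calls. Il33, an alarmin stored in the nucleus and sensed through Il1rl1 (ENSMUSG00000024810, chromosome 19, 29925114 to 29960718), was lower in Smo* P20. It lay at 190.0, 172 and 184 normalized counts in Smo* P20 against 335, 485 and 464 in WT P20 (-1.21, SE 0.18, limma adjusted p = 0.0325). At P28 the groups overlapped, at 612, 575 and 468 in Smo* cells and 863, 246 and 373 in WT cells (0.35, SE 0.40, adjusted p = 0.614). The difference between ages did not pass its test (1.56, SE 0.49, adjusted p = 0.087). The P20 call ended without any 1 of the 3 Smo* P20 replicates or of WT P20 replicates 2 and 3, with fold changes of -1.38 to -1.11 over the 6 libraries left out in turn and adjusted p up to 0.153.

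Il34, a ligand of Csf1r that maintains Langerhans cells in mouse skin, was lower in Smo* P28. It lay at 235, 248 and 272 normalized counts in Smo* P28 against 402, 536 and 572 in WT P28 (-0.99, SE 0.18, limma adjusted p = 0.0163). Il16, a ligand of CD4 released from a larger precursor, was also lower in Smo* P28, at 595, 507 and 833 against 1100.1, 1556 and 1204 in WT P28 (-1.01, SE 0.21, adjusted p = 0.0250). Neither pair of groups overlapped at P28, and both pairs overlapped at P20. The Il34 call ended without Smo* P28 replicate 1 or WT P28 replicate 2 or 3 (adjusted p up to 0.0818), and the Il16 call without Smo* P28 replicate 1 or 2 or WT P28 replicate 2 or 3 (up to 0.102). Il16 overlaps Stard5 on the opposite strand, at a mean of 757 normalized counts, and the sources used here do not say if reads were counted by strand.

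Il6, which signals through Il6st, was the interleukin with the highest mean, 3517 normalized counts over the 12 libraries. It lay at 6702, 1678 and 338 in Smo* P20 against 5358, 5009 and 3399 in WT P20 (-1.53, SE 0.88, limma adjusted p = 0.575), and at 11910.2, 2334 and 1901 in Smo* P28 against 1571, 1079.6 and 927 in WT P28 (1.69, SE 0.62, adjusted p = 0.131). The first Smo* library was the highest at both ages, and neither difference passed the test. Il18, a cytokine activated by inflammasomes, was at 22.7, 25.3 and 11.9 in Smo* P20 against 47.5, 65.6 and 56.9 in WT P20 (-1.51, SE 0.38, adjusted p = 0.16). The groups did not overlap, and DESeq2 (adjusted p = 0.0359) and the authors' deposited table (adjusted p = 0.00487) called it. Of 33 interleukins, 13 were tested at P20, with Il33 called, and 14 at P28, with Il16 and Il34 called. Il1rn, the antagonist of the Il1 receptor and outside the rule, was lower in Smo* P28, at 4.41, 0 and 0 against 160.4, 29.7 and 67.2 in WT P28 (adjusted p = 0.0159), a call that ended without WT P28 replicate 1 (0.0873) or 3 (0.0915). Keratinocyte markers, whose part in this was not tested, summed to 332 to 557 normalized counts in Smo* P28 against 980 to 1197 in WT P28, with none of 10 called by limma and none at 0 in all libraries. S100a8, a neutrophil and keratinocyte marker, lay at 5.51, 5.69 and 1.07 in Smo* P28 against 168, 85.5 and 193 in WT P28.

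**Figure D4:**
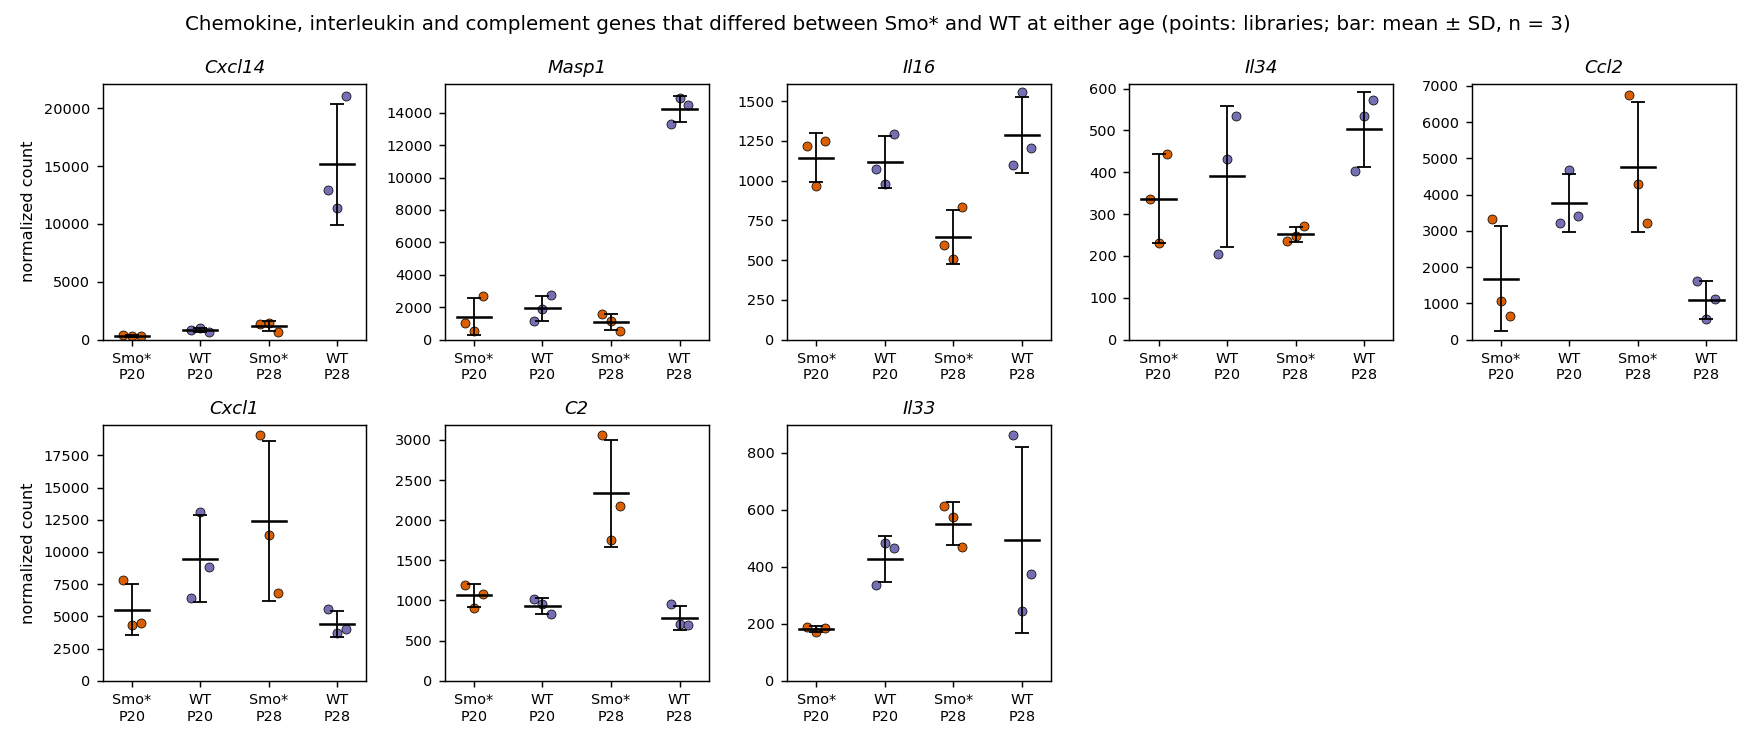
Normalized counts in each library (points), with the mean and SD of the 3 libraries of a group (bars), for 8 chemokine, interleukin and complement genes that passed the test between Smo* and WT at either age, in the order Smo* P20, WT P20, Smo* P28 and WT P28. The genes lower in Smo* P28 (Cxcl14, Masp1, Il16 and Il34) and the 3 higher ones (Ccl2, Cxcl1 and C2) show no overlap between the genotypes at P28.

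The early complement genes were among the most abundant of the 87. C3, the central component, had the highest mean of all, 15966 normalized counts over the 12 libraries. It lay at 19476, 3132 and 8138 in Smo* P20 against 10835, 25029 and 16432 in WT P20 (-1.06, SE 0.59, limma adjusted p = 0.56; -1.70, adjusted p = 0.178, without Smo* P20 replicate 1), and at 14813, 18529 and 12203 in Smo* P28 against 35404, 17875 and 9722 in WT P28 (-0.29, SE 0.41, adjusted p = 0.691). The groups overlapped at both ages. C1s1 and C1ra, the proteases of the C1 complex, and C4b, which C1s cuts, passed the test at neither age, with fold changes of -0.15 to 0.09 at P20 and 0.10 to 0.27 at P28 and adjusted p of 0.582 or more. C4b has a near-identical copy, C4a, so that its counts are uncertain.

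C2, the protease of the classical and lectin convertase (ENSMUSG00000024371, chromosome 17, 34862604 to 34898265), was higher in Smo* P28. It lay at 3066, 1754 and 2179.8 normalized counts in Smo* P28 against 958, 703 and 696 in WT P28 (1.55, SE 0.22, limma adjusted p = 0.0055). At P20 it lay at 1196, 910.3 and 1081 in Smo* cells against 1019.7, 952 and 829 in WT cells (0.18, SE 0.14, adjusted p = 0.694). The groups stood apart at P28 and overlapped at P20, and the genotype effect differed between the ages by 1.36 (SE 0.28, adjusted p = 0.0191). Its neighbour Cfb, the corresponding protease of the alternative pathway, lay at 48.5, 38.9 and 46.0 in Smo* P28 and 46.1, 46.3 and 13.8 in WT P28 (0.50, SE 0.53, adjusted p = 0.586). C2 overlaps Gm20547 on the same strand, which had 0 reads, and Zbtb12 on the opposite strand, at a mean of 85.8 normalized counts.

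Masp1, which encodes proteases of the lectin pathway (ENSMUSG00000022887, chromosome 16, 23449417 to 23520815), was lower in Smo* P28. Its normalized counts were 1550.5, 1153 and 525 in Smo* P28 against 13316, 14915 and 14462 in WT P28 (-3.86, SE 0.34, limma adjusted p = 0.00065), and 1022, 504 and 2689.6 in Smo* P20 against 1156, 1863 and 2745 in WT P20 (-0.70, SE 0.55, adjusted p = 0.7). Every WT P28 library was far above the other 9. The difference between ages was -3.16 (SE 0.75, adjusted p = 0.0353), and -2.71 with an adjusted p of 0.0522 without Smo* P28 replicate 3. Masp2, its partner in the lectin pathway, had a mean of 10.2 normalized counts over the 12 libraries. Masp1 overlaps Rtp4 on the opposite strand, at a mean of 83.6.

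Cfi, a protease that inactivates the active form of C3, lay at 38.6, 35.1 and 18.2 normalized counts in Smo* P28 and 71.7, 41.6 and 25.8 in WT P28, groups that overlapped (-0.53, SE 0.52, limma adjusted p = 0.548). At P20 it lay at 7.23, 11.3 and 4.56 in Smo* cells and 7.91, 35.4 and 39.5 in WT cells. Those groups overlapped as well (-1.51, SE 0.69, limma adjusted p = 0.467).

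Of the terminal components, C7 and C6 had reads in the tests and C8a had none. C7 lay at 91.9, 86.2 and 119.6 normalized counts in Smo* P20 against 179.7, 221 and 182 in WT P20 (-0.97, SE 0.21, limma adjusted p = 0.104), without overlap and without a call. At P28 it lay at 1909, 979 and 633 in Smo* cells and 1944, 1094 and 874 in WT cells (-0.22, SE 0.42, adjusted p = 0.78). C6 was at 29.8, 28.5 and 0 in Smo* P28 against 157, 102 and 41.4 in WT P28 (-3.19, SE 1.28, adjusted p = 0.161). Without the library at 0, Smo* P28 replicate 3, its fold change was -1.56 (adjusted p = 0.114). It was called in the authors' deposited table (adjusted p = 0.0127).

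The C1q chains, which macrophages are known to make, were low in these cells. C1qa lay at 37.2, 0.871 and 1.83 normalized counts in Smo* P20 against 30.5, 149 and 20.2 in WT P20 (-2.99, SE 1.19, limma adjusted p = 0.392; -4.34, adjusted p = 0.0965, without Smo* P20 replicate 1). At P28 it lay at 41.9, 30.3 and 130.5 in Smo* cells against 26.5, 13.1 and 56.2 in WT cells (adjusted p = 0.394). The 2 lowest C1qa values came from the 2 libraries with the lowest summed myeloid markers, Smo* P20 replicates 2 and 3 (598 and 685 normalized counts), and the highest C1qa value came from the library with the highest sum, WT P20 replicate 2 (2687). C1qb and C1qc lay at 0.871 to 123 and at 2.61 to 110.3 over the 12 libraries. Of the 16 myeloid markers 12 were tested at P20 and 11 at P28, and none passed at either age by limma. Their part in the C1q values was not tested.

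**Figure D5:**
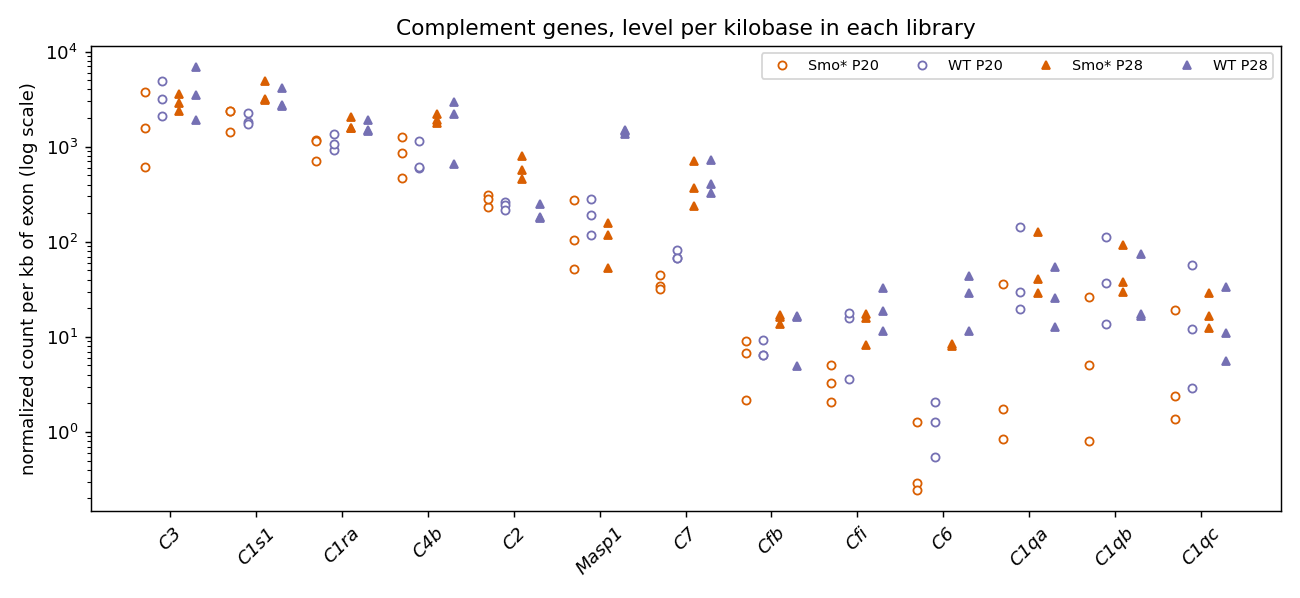
Normalized counts per kilobase of exon (log scale) of 13 complement genes in each library, with Smo* in orange and WT in purple, P20 as open circles and P28 as filled triangles, in the order Smo* P20, WT P20, Smo* P28 and WT P28 within a gene. Masp1 is lower and C2 is higher in the 3 Smo* P28 libraries than in the 3 WT P28 libraries; C6 in Smo* P28 replicate 3 is 0 and is not drawn.

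Over 5 lists of receptors, complement regulators and signalling genes together, 2 of 88 tested genes passed at P20 (2.27%, against 0.696% of all genes) and 8 of 91 at P28 (8.79%, against 8.9% of all genes). Of 42 interleukin receptors, 31 were tested at P20 and 32 at P28. Il13ra1, a subunit of the receptor for Il4 and Il13, was lower in Smo* P20, at 2090.4, 1831 and 1761 normalized counts against 3319, 2932 and 3162 in WT P20 (-0.73, SE 0.11, limma adjusted p = 0.0325), a call that ended without any 1 of 5 libraries, all but Smo* P20 replicate 1 (adjusted p up to 0.125). None passed at P28. Of 17 NF-kappaB pathway and target genes, none passed at P20 and 4 were higher and none lower in Smo* P28: the subunit genes Rela (0.91), Relb (0.90) and Rel (1.56), and the adhesion molecule gene Icam1 (1.52). The median fold change of the 17 was -0.51 at P20 and 0.65 at P28. At P28 the sum over the 17 was 55961 to 127610 normalized counts in Smo* cells against 40248 to 52373 in WT cells. Rel lay at 3006, 2509 and 1365 in Smo* P28 against 673, 1013 and 589 in WT P28 (SE 0.31, adjusted p = 0.0208), and these groups did not overlap. Without WT P28 replicate 3 all 4 calls ended (adjusted p of 0.0507 for Rela, 0.0872 for Relb, 0.0847 for Rel and 0.106 for Icam1). Calls also ended without WT P28 replicate 1 for Relb, Rel and Icam1, without Smo* P28 replicate 1 for Relb and Rel, without Smo* P28 replicate 2 for Rel and Icam1, and without WT P28 replicate 2 for Icam1. All 4 ended as well in limma without a variance trend (adjusted p of 0.0538 to 0.0878).

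Among 16 JAK, STAT and SOCS genes, 15 were tested, none passed at P20, and the feedback inhibitors Cish (0.80) and Socs1 (0.86) were higher in Smo* P28. Both calls ended without any 1 of 5 libraries, all but Smo* P28 replicate 3, with limma adjusted p up to 0.116 and 0.136. Of 14 complement components outside the rule, 9 were tested at P28, and Colec12, a scavenger receptor with a collectin domain, was lower in Smo* P28 (-0.54, SE 0.12, adjusted p = 0.0266). That call ended without Smo* P28 replicate 2 or WT P28 replicate 1, 2 or 3 (adjusted p up to 0.116). Of 20 complement receptors and regulators, 13 were tested at P20 and 15 at P28, and none passed at either age by limma. Serping1, the inhibitor of C1, lay at 39384, 31122 and 34309.9 normalized counts in Smo* P28 and 34163, 28630.1 and 25143 in WT P28, groups that overlapped.

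Between P28 and P20, the WT cells had 9 calls among 48 tested genes and the Smo* cells 6. In WT cells 18.8% of the tested genes of these families and 25.4% of all genes were called, and in Smo* cells 12.5% and 3.46%. Both comparisons came from 1 fit of all 12 libraries, and age, stage and labelled sex cannot be told apart in either. C7 and Cxcl14 were higher at P28 in both genotypes. C7 averaged 1174 ± 659.6 normalized counts in Smo* P28 against 99.2 ± 17.8 in Smo* P20 (P28 over P20, 3.42, SE 0.36, limma adjusted p = 0.000845), and 1304 ± 565 in WT P28 against 194 ± 22.9 in WT P20 (2.66, SE 0.36, adjusted p = 0.000314). Cxcl14 averaged 1166 ± 413 in Smo* P28 against 339.9 ± 78.8 in Smo* P20 (1.73, SE 0.31, adjusted p = 0.0166), and 15145 ± 5211 in WT P28 against 807 ± 198 in WT P20 (4.21, SE 0.31, adjusted p = 4.07e-06). P28 and P20 did not overlap for either gene in either genotype.

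In WT cells the complement genes Masp1 (2.97) and C6 (4.11) and the chemokine Cxcl5 (3.73) were also among the genes higher at P28, and the inducible chemokines Ccl2 (-1.89), Ccl11 (-1.15) and Cxcl1 (-1.06) were lower. The C6 and Cxcl5 fold changes rest on few reads at P20, 13 and 32 in WT P20. There C6 lay at 4.52, 7.28 and 1.93 normalized counts and Cxcl5 at 3.39, 9.37 and 19.3. Cxcl14, C7 and Masp1 kept their WT calls in all 21 alternatives. The call of C6 ended without WT P20 replicate 3 or WT P28 replicate 1 or 2 (limma adjusted p up to 0.0761), that of Ccl2 without WT P20 replicate 2 or WT P28 replicate 2 (0.0806), and that of Ccl11 without WT P20 replicate 2 or WT P28 replicate 3 (0.0617). The Cxcl5 call ended without any 1 WT library or Smo* P20 replicate 1 or 3 (up to 0.143), and also without a filter (0.0619), with a pseudocount of 0.5 (0.0770) and without a variance trend (0.0744). The Cxcl1 call ended without any 1 WT library but WT P20 replicate 1, and without Smo* P20 replicate 2 or 3 or Smo* P28 replicate 2 (up to 0.180), and also without a filter (0.0615) or a trend (0.0854). In Smo* cells C2 (1.10), Il33 (1.59) and Il18 (1.47) were higher at P28 and Il16 (-0.85) was lower. Without Smo* P20 replicate 3 or Smo* P28 replicate 1 the Smo* cells had 1 call, C7, against 6 with all libraries, and of all genes 0.561% and 0.331% were called, against 3.46%. Calls also ended without Smo* P20 replicate 1 for Il16, Il18 and Il33, without Smo* P20 replicate 2 for Il33, and without Smo* P28 replicate 2 for all 3 (adjusted p up to 0.126). Leaving out WT P20 replicate 2 or WT P28 replicate 3 ended those of Il16 and Il18, and leaving out WT P20 replicate 3 or WT P28 replicate 1 or 2 ended that of Il18. Those of Il16 and Il33 also ended without a trend (0.0740 and 0.0648) and that of Il18 without a filter (0.0725). C7 kept its call in all 21 alternatives.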

How the data were processed

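Per the labels' protocols, total RNA of sorted dermal papilla cells was ribosome-depleted and turned into strand-marked libraries (NEBNext Ultra Directional). The submitters' processing notes list Trimmomatic, TopHat2, HTSeq and DESeq2, and mm10 and GRCm38.p4, without saying what each was used for. There are 2 deposited tables, with 6 libraries of 1 age and 25887 genes each. Their values are normalized counts (unit: signal), that is, whole reads that the authors scaled by a library's size factor. The values themselves show this: 100% come out whole to within 0.01 reads, and the deposited mean column is the mean of all 12 libraries, which were therefore scaled together. Further deposited columns give a log2 fold change and SE (WT over Smo*, as 100% of the signs of called genes show), a score (test statistic), and a p-value with its adjusted form.

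Symbols, positions and exon lengths came from GENCODE M21 (GRCm38), which named 98.7% of identifiers. The main test was limma 3.58.1 (R 4.3.3), with a variance trend fitted on the mean, of log2(value + 1). It used the 6 libraries of an age, or all 12 across ages, and genes averaging 10 or more in these. This scale understates changes of low genes. It called 102 genes at P20 and 1313 at P28. Alternatives were TMM and quantile scaling, no filter or one at 50, pseudocounts 0.5 and 5, no trend, edgeR 4.0.16 and DESeq2 1.42.0 on recovered reads, a single fit for both ages, the authors' adjusted p-values, and omission of each library. For called genes of the pathway lists they were added after seeing the data. Scripts were tested on simulated data. Replicates are numbered by accession, and all replicate pairs differed beyond sampling noise (chi-square per gene of 36.0 to 147).

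Genes called in any comparison, the 20 with the highest mean, the 8 with the smallest p at each age and those called in the authors' deposited table (the last 2 kinds at a mean of at least 50) were described, up to 4 called genes per pathway list and age were named, and other genes were named to complete their class. The gene families, pathway lists, marker lists and rules were chosen with earlier results of these data known. One gene that the rule takes in is counted but not reported here.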

Additional observations from a re-analysis of the deposited data

Results flagged for a closer look

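For 5 genes the genotype effect, as log2 of Smo* over WT, differed between P28 and P20 by the interaction term of 1 limma fit of 12 libraries. The difference, P28 minus P20, was -2.48 for Cxcl14 (fold change -3.72 at P28 and -1.24 at P20), 3.67 for Ccl2 (2.18 and -1.49), 1.36 for C2 (1.55 and 0.18), -3.16 for Masp1 (-3.86 and -0.70) and 2.15 for Cxcl1 (1.38 and -0.77). Ccl2 and Cxcl1 lay above 0 at P28 and below 0 at P20, where neither passed the test on its own. The calls of Cxcl14 and Ccl2 held in all 21 alternatives. Those of C2, Masp1 and Cxcl1 did not: all 3 ended without WT P28 replicate 2 or 3 and without WT P20 replicate 2. That of Masp1 also ended without Smo* P20 replicate 1, WT P20 replicate 1 or Smo* P28 replicate 3, and that of Cxcl1 without Smo* P20 replicate 2 or 3, WT P20 replicate 3 or Smo* P28 replicate 1 (limma adjusted p up to 0.0614 for C2, 0.0867 for Masp1 and 0.0957 for Cxcl1). Without the variance trend those of Masp1 and Cxcl1 ended. Age, stage and labelled sex cannot be told apart in these differences.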

How the results depend on the processing

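The calls of C2, Cxcl14 and Masp1 at P28 held in all 17 alternatives, and no called fold change changed sign. At P20 the count of 1 called gene became 2 without a filter (Ccl24 added), 6 with DESeq2 and 3 in the authors' deposited table. It became 0 in limma without a trend and in 1 limma fit of 12 libraries, where 10 and 13 genes had an unadjusted p under 0.05, and stayed 1 with edgeR. With 1 P20 library left out it lay between 0 and 5: it was 5 without Smo* replicate 1, 0 without Smo* replicate 2 or 3 or WT replicate 2 or 3 (8, 11, 8 and 12 genes at an unadjusted p under 0.05), and 1 without WT replicate 1. At P28 the count of 8 became 5 without a trend, and lay between 4 and 12 with 1 library left out, 4 without WT replicate 2 or 3, 5 without Smo* replicate 1 and 12 without Smo* replicate 3. For the difference between ages, the count of 5 became 3 without a trend and 8 with DESeq2, and lay between 2 and 10 with 1 library left out, 2 without WT P20 replicate 2 or WT P28 replicate 2 or 3, 9 without WT P28 replicate 1 and 10 without Smo* P20 replicate 1. For P28 over P20, the count of 6 in Smo* cells became 12 with DESeq2 and lay between 1 and 8, and that of 9 in WT cells between 6 and 12, with 1 library left out. The cause of these shifts was not tested. The calls of Ccl2, Cxcl1 and Il16 at P28 and of Il33 at P20 also ended without a trend, and those of Il34 at P28 and Il33 at P20 in 1 fit of 12 libraries. Among pathway genes, the calls of Cxcr4 at both ages and of Il13ra1 at P20 ended without a trend. So did those of Ackr4, Colec12, Rela, Relb, Rel, Icam1, Cish, Socs1, Fosl2 and Nr4a1 at P28. In 1 limma fit of 12 libraries the calls of Cxcr4 at P20 (adjusted p = 0.145) and Socs1 at P28 (0.0862) ended. That of Socs1 also ended with a pseudocount of 0.5 (limma adjusted p = 0.0504).

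No paired analysis was possible because the labels give no replicate numbers, and the number in each title is shared by no other sample. The precision of these genes is limited by their spread between 3 libraries and, for the 39 with a mean under 10 normalized counts, by depth. Counts of C4b, Ccl21a and Ccl27a, which have near-identical copies, and of genes that overlap another on the opposite strand (among them Il16, Cxcl10, C2, Masp1, Cxcl16 and Il18) are uncertain.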
